A study of Mus musculus with 4 samples.

Results

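Of 29899 cell barcodes kept from 4 mouse pituitary libraries, 87 (0.291%, 95% exact binomial interval 0.233% to 0.359%) carried RNA of the markers used here for pituicytes. A kept barcode had at least 500 detected genes and at most 20% of its RNA counts from mitochondrial genes. A barcode was counted as marker-positive when it held at least 1 count of at least 2 of Nkx2-1, Col25a1, Scn7a, Rax and Vcan and 0 counts of C1qa, Pecam1 and Oacyl, which mark macrophages, endothelium and melanotrophs. The counts are numbers of unique molecular identifiers (UMIs), sequence tags by which every RNA molecule is counted a single time. The rule read the same counts that are described below, so levels of these barcodes against all others are a description and carry no test.

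Pituicytes are the glia of the posterior lobe, where they surround the axon terminals that release oxytocin and vasopressin into the blood. They arise from the infundibulum, the floor of the developing hypothalamus, which Nkx2-1, Rax and Lhx2 help to pattern, and share genes with tanycytes, the ependymoglia of the third ventricle, and with astrocytes. They are known to change shape around the terminals with hormone demand and to regulate contact of the terminals with the capillary wall.

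The study measured pituitaries at 14 and 40 weeks from transgenic mice with overexpressed p25 (p25OE) and from wild-type (WT) littermates, all labelled as C57BL/6- B6;CBA-BiTg mice. The p25 protein is a cleaved form of p35, the product of Cdk5r1, and it activates the kinase Cdk5. The promoter that drives p25, the cells that express it and the number of glands per library are not given in the sources used here. Every genotype and age had a single library, so the spread between replicates is unknown for all differences below. No p-value was computed, and every interval is an exact 95% interval that covers counting error only.

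The libraries held between 53714895 and 95242353 UMIs over 8125 to 15018 barcodes, and the kept barcodes had median depths between 4940 and 10778 UMIs. No marker-positive barcode was shared between libraries, although 85 kept barcodes were shared between the 40-week libraries and 13 between the 14-week libraries. The labels name pituitaries and mention no sort or dissection of lobes. How much posterior lobe each library received is not given, so a smaller number of cells in the gland and a smaller recovery of them cannot be told apart.

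The WT library at 14 weeks gave most of the marker-positive barcodes. It held 48 among 6579 kept barcodes (0.730%, interval 0.538% to 0.966%). The p25OE library at 14 weeks held 26 of 7667 (0.339%, 0.222% to 0.496%). At 40 weeks the WT library held 10 of 7927 (0.126%, 0.0605% to 0.232%) and the p25OE library 3 of 7726 (0.0388%, 0.00801% to 0.113%). The exclusion of Oacyl, a melanotroph gene, bears on these shares, because 11.6%, 29.3%, 16.8% and 78.3% of kept barcodes of WT and p25OE at 14 weeks and WT and p25OE at 40 weeks had an Oacyl UMI. Among barcodes without one, the shares were 0.825%, 0.480%, 0.152% and 0.179% in the same order. At the older age the order of the genotypes therefore turned, while their intervals overlapped (0.0727% to 0.279% and 0.0370% to 0.523%). After each barcode was thinned to 1000 UMIs, the rule found 19, 4, 6 and 1 barcodes, or 0.292%, 0.0529%, 0.0759% and 0.0133% of those deep enough. The share was thus highest in the 14-week WT library under each of these counts, and the order of the other 3 libraries changed with the count.

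The marker-positive barcodes fell into 2 sets by how many markers they carried. In 32 barcodes (20, 6, 5 and 1 in the libraries in the order above) at least 3 markers were present, and these are called marker-rich. The other 55 (28, 20, 5 and 2) had exactly 2. Marker-rich barcodes combined the infundibular factors with Col25a1 and Scn7a. Col25a1, a transmembrane collagen, was present in 32 of 32, and Scn7a, an atypical sodium channel, in 30. Nkx2-1 was present in 27 and Rax in 24, and 17 barcodes carried all 4 of these without Vcan. Vcan, which encodes the matrix proteoglycan versican, was present in 1 of the 32.

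The 2-marker barcodes had another make-up. Vcan was present in 34 of 55 and the pair Col25a1 and Vcan alone accounted for 24. Nkx2-1 was present in 3 and had a level of 4.06 CPM (the UMIs of the gene relative to all UMIs of the set), against 330 CPM in the marker-rich set and 0.229 CPM in all other kept barcodes. Among the other kept barcodes, 3.01% had a Col25a1 UMI and 1.85% a Vcan UMI, whereas 0.188% had an Nkx2-1 UMI and 0.268% a Rax UMI. The marker-rich barcodes were not deeper than the rest, with a median of 5611 UMIs against 6527. The 2-marker barcodes had a median of 12597 UMIs.

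**Figure D1:**
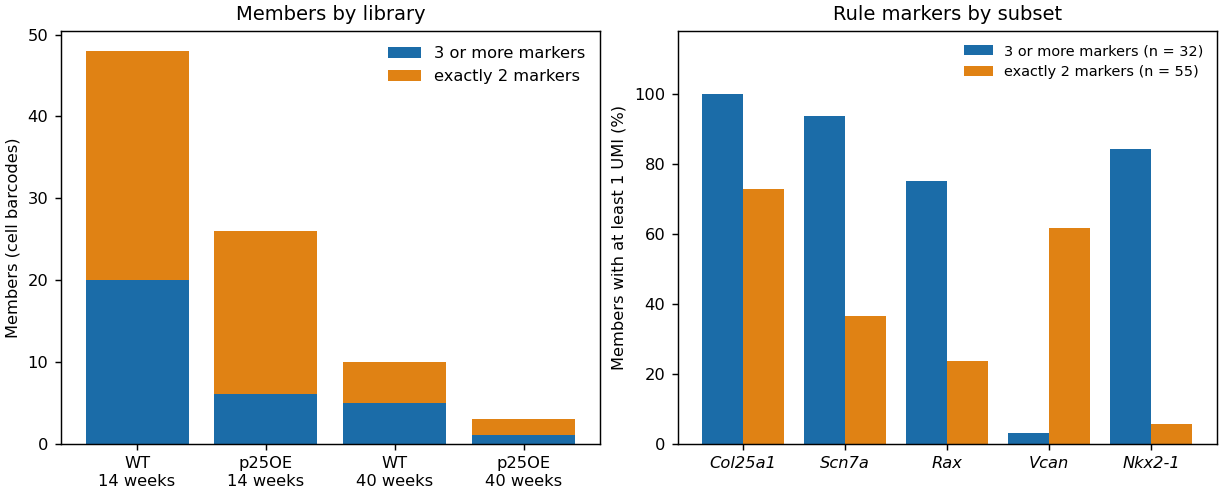
Marker-positive barcodes in each library (left, number of cell barcodes, stacked by number of markers) and the share of each set with at least 1 UMI of each rule marker (right, percent of 32 and of 55 barcodes). The 14-week WT library held 48 of the 87, and Vcan was present in 34 of 55 barcodes with exactly 2 markers and in 1 of 32 with more.

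The label of pituicytes was checked with genes that the rule did not use. Each barcode was matched with the reference profile it correlated with best, over expressed genes. The rule genes and the genes that picked the reference barcodes, Gh, Prl, Pomc, Lhb and Fshb among them, were left out. With their own counts left out of the pooled profile, 29 of 32 marker-rich barcodes were nearest to the marker-rich profile, which shows that these barcodes resembled each other and does not name their cell type. In WT at 40 weeks 1 was nearest to stem-like barcodes and 1 to lactotrophs, and in p25OE at 14 weeks 1 to corticotrophs. Of the 55 2-marker barcodes, 4 were nearest to the marker-rich profile, while 17 were nearest to lactotrophs, 11 to somatotrophs, 9 to gonadotrophs and 6 to stem-like barcodes. None of the 24 barcodes with Col25a1 and Vcan alone was nearest to the marker-rich profile, and 10 of them were nearest to lactotrophs. In all kept barcodes 37 were nearest to the marker-rich profile, 26, 7, 3 and 1 in the libraries. Of these, 33 were marker-positive, 3 had been left out through an exclusion gene, and 1 had a single marker.

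**Figure D2:**
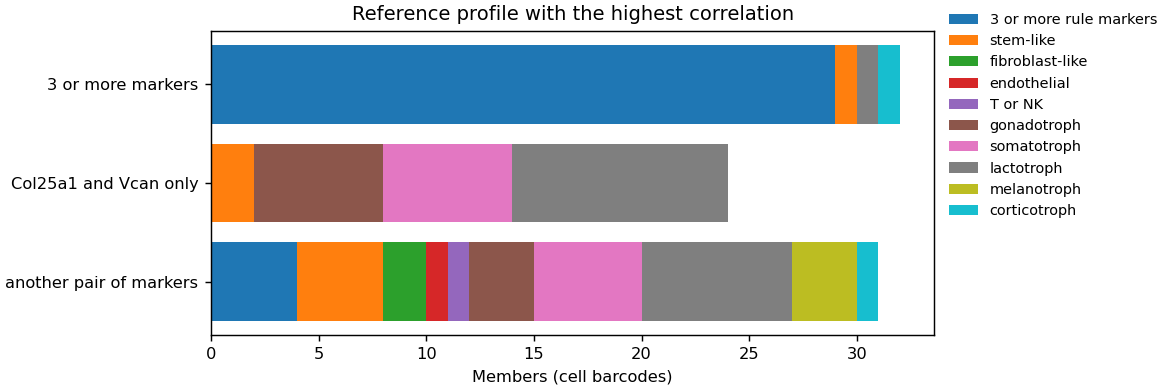
Number of marker-positive barcodes by the reference profile with the highest Pearson correlation, for the marker-rich set, for barcodes with Col25a1 and Vcan alone and for barcodes with another pair. Most of the upper bar (29 of 32) is nearest to its own profile, and none of the 24 barcodes of the middle bar is.

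Hormone RNA separated the sets as well. The RNA of Gh, Prl, Pomc, Lhb and Cga made up a median of 1.66% of UMIs in marker-rich barcodes, 10.5% in 2-marker barcodes and 17.1% in all others. In the 14-week WT library the marker-rich barcodes ran from 0.560% to 43.7%. A single barcode with 32712 UMIs, the deepest of the set, held the highest share, of which Gh made up 43.4% of its UMIs, and it also carried 4 of the 5 markers. The sum of Gh over the marker-rich set (15341 UMIs) was therefore mostly 1 barcode (92.6%). The 5 marker-rich barcodes of the 40-week WT library lay between 5.20% and 12.7%. Whether barcodes with high hormone RNA hold a second cell was not tested.

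**Figure D3:**
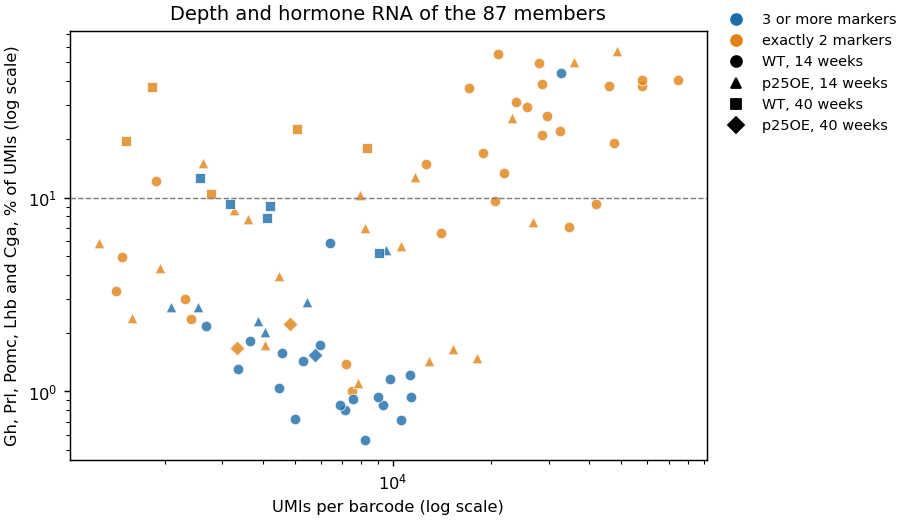
UMIs per barcode (log axis) against the percent of UMIs from Gh, Prl, Pomc, Lhb and Cga (log axis) for each of the 87 marker-positive barcodes, coloured by number of markers and shaped by library. The dashed line marks 10%, and 2 of 32 marker-rich barcodes and 29 of 55 2-marker barcodes lie above it.

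Genes of glia that the rule did not use were present in nearly every marker-rich barcode. At 1000 UMIs per barcode, a median of 5.5 of 25 astroglial genes was detected in marker-rich barcodes, 2 in 2-marker barcodes and 1 in the others. At least 3 of 20 tanycyte genes were detected in 29 of 32 marker-rich barcodes, in 7 of 55 2-marker barcodes and in 1.20% of the others. At least 3 of 20 transcription factors of the infundibulum and of tanycytes were detected in 19 of 32, in 6 of 55 and in 4.06%.

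Against all other kept barcodes, 196 of 7765 measured genes were at least 4-fold higher in the marker-positive barcodes (2.52%) and 103 were at least 4-fold lower (1.33%). A gene was measured when at least 20 UMIs were present or would be present at the level of the other barcodes. A gene scarce in the other barcodes could thus be measured only where it was high in the set, and could not be called lower. For lists of such genes, the counts and medians below are largely fixed by this limit, most of all in the marker-rich set. In the marker-rich set alone 286 of 2053 genes were 4-fold higher (13.9%) and 71 lower (3.46%), and in the 2-marker set 42 of 6579 were higher (0.638%) and 88 lower (1.34%). The median log2 ratio over all measured genes was 0.22 in the marker-positive and 0.43 in the marker-rich barcodes. The 30 highest genes of the 87 barcodes all had a higher ratio in the marker-rich than in the 2-marker set, and 14 of them were under 4-fold in the 2-marker set. The values below are those of the marker-rich set against all barcodes that were not marker-positive unless another set is named. The sums over 87 barcodes mix glial with endocrine RNA, since the marker-rich barcodes held 221581 of 1206875 UMIs.

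**Figure D4:**
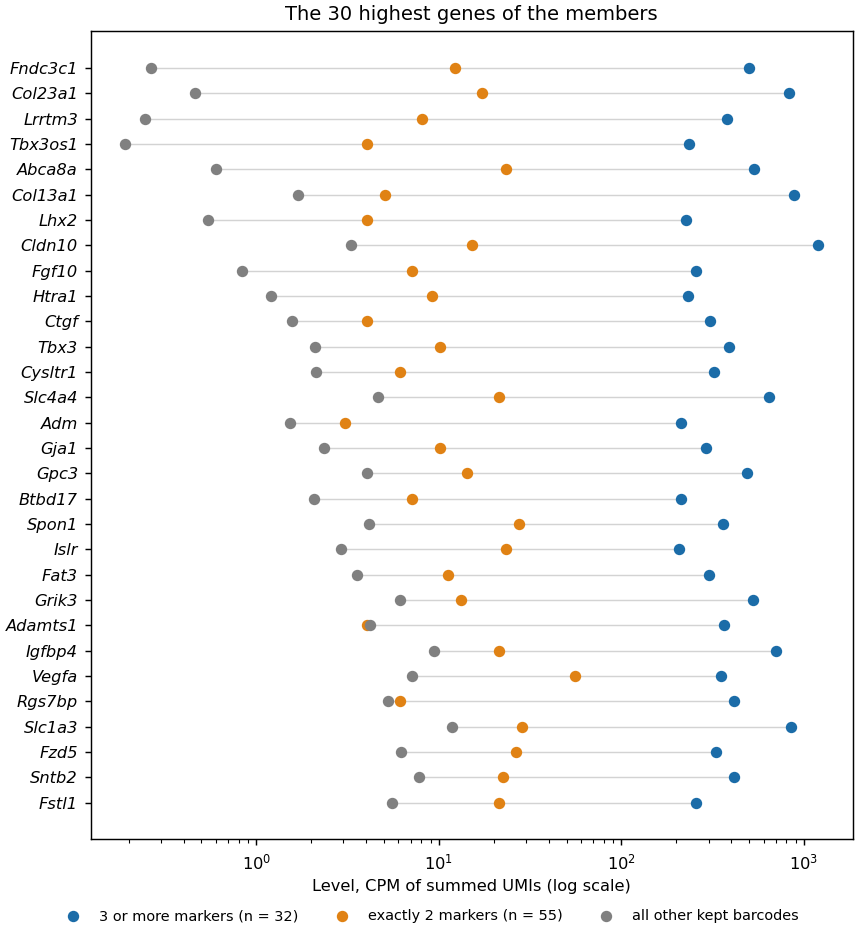
Level (CPM of summed UMIs, log axis) of the 30 highest genes of the marker-positive barcodes in the marker-rich set, the 2-marker set and all other kept barcodes. For each gene the marker-rich set lies highest, and the 2-marker set lies near the other barcodes for genes such as Adamts1 and Rgs7bp.

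Transcription factors of the infundibulum were high. Lhx2, a LIM homeodomain factor of the developing hypothalamus and neurohypophysis, was present in 21 of 32 barcodes at 226 CPM, against 0.542 CPM elsewhere (417-fold, 296 to 578). Tbx3, a T-box factor of the infundibulum, was present in 25 at 388 CPM (186-fold, 146 to 233). Sox9, a factor of glia and progenitors, was present in 27 at 451 CPM against 15.6 CPM (28.9-fold, 23.4 to 35.2). Nfib was 12.9-fold higher and Sox2, shared with the stem cells of the anterior lobe, 5.33-fold. Of the 20 factors in the list, 9 were measured in the marker-rich set, 6 were 4-fold higher, 0 were lower, and the median log2 ratio of the measured was 2.42. Over all 87 barcodes the counts were 11 measured, 3 higher and 0 lower.

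Tbx3os1, a transcript antisense to Tbx3, was present in 22 barcodes at 235 CPM (1225-fold, 818 to 1834). In the GRCm38 build Tbx3os1 lies on chromosome 5 from 119570130 to 119671365 on the minus strand, and Tbx3 from 119670669 to 119684724 on the plus strand. The 2 genes overlap at their starts, and how reads were assigned by strand is not given in the sources used here, so the level of Tbx3os1 is given as uncertain there.

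Of the 20 tanycyte genes, 11 were measured in the marker-rich set and 11 were 4-fold higher (median log2 ratio 4.50), which the limit for a measured gene favours. Among the 87 barcodes 15 were measured, 10 were higher and 0 lower. Col23a1, a transmembrane collagen, was present in 25 barcodes with 184 UMIs at 830 CPM against 0.461 CPM (1803-fold, 1429 to 2281). Its span in GRCm38 is chromosome 11 from 51289920 to 51583918. Fgf10, a growth factor that marks a subset of tanycytes, was present in 19 barcodes (309-fold, 227 to 415). Gpr50, an orphan receptor of the melatonin receptor family, had 27 UMIs in 12 barcodes (1945-fold). Adm, which encodes adrenomedullin, was 139-fold higher. Crym, a thyroid hormone binding protein, had 8 UMIs in 7 barcodes, under the limit for a measured gene there.

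Among 25 astroglial genes 15 were measured and 11 were higher, with a median log2 ratio of 3.78, and in the 87 barcodes 17 were measured and 7 higher. Slc1a3, the glial glutamate transporter, was present in 26 of 32 barcodes at 853 CPM against 11.8 CPM (72.0-fold, 61.9 to 83.4). Slc4a4, a sodium bicarbonate cotransporter, was 137-fold higher and Gja1, a gap junction connexin of astrocytes, 124-fold. The second glial glutamate transporter, Slc1a2, was 36.6-fold higher and Mlc1, a membrane protein of astrocyte endfeet, 32.7-fold. Ntrk2, the receptor of the neurotrophin BDNF, had a UMI in 31 of 32 barcodes and was 22.1-fold higher. Most of the measured astroglial genes were thus higher in the set. Few UMIs were found of 3 other genes that mark mature astrocytes. Gfap had 1 UMI, Aqp4 2 and S100b 0 in the 32 barcodes, and these were named after their values were seen. S100b was at 2.09 CPM in the other barcodes, so its 0 is not resolved at this depth.

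Few genes of the Notch pathway, which holds glial progenitors undifferentiated, were measured in the marker-rich set. Hes1, a Notch target, was 27.1-fold higher with UMIs in 26 barcodes, Notch1 was 25.2-fold and the growth factor receptor Fgfr1 24.6-fold. Of 22 genes in the list, 4 were measured, 3 were higher and 0 lower, while over all 87 barcodes 10 were measured, 3 were higher and 1 lower.

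Secreted signals formed a group of 35 genes. In the marker-rich set 8 were measured and 8 were higher (median log2 ratio 4.35), which the limit for a measured gene favours. Fewer were higher against fibroblast-like barcodes, as given below. For all 87 barcodes 12 were measured, 7 were higher and 2 lower. Ctgf, a matricellular protein, was 196-fold higher, Wnt5a 110-fold (69.0 to 167) and Vegfa, the endothelial growth factor, 49.7-fold with UMIs in 25 barcodes. Igfbp2, Fgf1 and Angptl4 were 22.0-fold, 19.0-fold and 17.0-fold higher. Outside the list, Igfbp4, a binding protein of insulin-like growth factors, had UMIs in 31 of 32 barcodes (75.1-fold), Fstl1 was 46.2-fold higher, and the secreted protease Htra1 192-fold.

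Matrix genes and their proteases were a further group, with 12 of 43 measured, 11 higher and a median log2 ratio of 3.75. Fewer of them were higher against fibroblast-like barcodes, as given below. Over the 87 barcodes 18 were measured and 9 higher, but some of those came from the 2-marker set. Adamts1, a metalloprotease that cleaves proteoglycans, was 87.3-fold higher in the marker-rich and 0.970 times the level of the others in the 2-marker set. Bcan, the proteoglycan brevican of brain matrix, had UMIs in 30 of 32 barcodes (32.2-fold, 26.7 to 38.6). The metalloprotease inhibitor Timp3 was 27.1-fold higher, Col9a3 172-fold and Spon1, a spondin, 87.2-fold. Col13a1, a transmembrane collagen, had 194 UMIs in 28 barcodes at 876 CPM against 1.69 CPM (518-fold, 435 to 613). Gpc3, a glypican, was 120-fold higher. By contrast, Dcn and Lum, matrix genes of fibroblasts, had 245 and 30 UMIs in the 87 barcodes, all in the 2-marker set, in 2 and 1 barcodes. Spp1 had 252 UMIs, of which 1 was in the marker-rich set.

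Receptors for neurohormones, transmitters and purines were mostly below the limit for a measured gene. Of 47 genes, 2 were measured and both were higher, which the limit favours, while 24 had 0 UMIs in the marker-rich barcodes. Npr1, the receptor of atrial natriuretic peptide, had 35 UMIs in 18 barcodes (99.5-fold, 68.4 to 140), and Lgr4, a receptor that enhances Wnt signals, had 31 in 13 (15.1-fold). Cntfr had 19 UMIs in 14 barcodes, all in the 14-week WT library. Outside the list, Cysltr1, a receptor of cysteinyl leukotrienes, was present in 19 barcodes (152-fold), Grik3, a kainate receptor subunit, in 29 (86.2-fold) and Fzd5, a Wnt receptor, in 21 (53.1-fold). In the 87 barcodes 12 receptors of the list were measured, 3 were higher and 2 lower.

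Channels, transporters and junction genes had 6 of 34 measured and 4 higher, with a median log2 ratio of 2.69. In the 87 barcodes 11 were measured, 1 was higher and 0 lower. Ano1, a calcium-activated chloride channel, had 31 UMIs in 12 barcodes (169-fold, 112 to 246). Trpm3, a cation channel, was 9.75-fold higher and the chloride cotransporter Slc12a2 8.64-fold. Outside the list, Cldn10, a claudin of tight junctions, had UMIs in 29 of 32 barcodes at 1191 CPM against 3.31 CPM (360-fold, 312 to 413), and Abca8a, a lipid transporter of the ABC family, in 29 (881-fold, 690 to 1123).

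Lipid genes followed a mixed pattern. Srebf1, which encodes a regulator of fatty acid synthesis, was 24.4-fold higher with UMIs in 24 barcodes, Abca1, a cholesterol exporter, 8.05-fold and the desaturase gene Scd2 5.42-fold. Of 25 genes for cholesterol and fatty acid synthesis, 4 were measured, 3 were higher and 0 lower, and in the 87 barcodes 19 were measured and 1 was higher. Fasn and Acaca had ratios of 3.30 and 3.33, the latter with 10 UMIs.

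The remaining genes among the 30 highest belonged to no list. Fndc3c1, which encodes a fibronectin type III protein, was present in 25 barcodes with 111 UMIs at 501 CPM against 0.265 CPM (1888-fold, 1391 to 2576). It lies on chromosome X from 106420041 to 106485401. Lrrtm3, a leucine-rich repeat protein of synapses, was present in 26 (1535-fold, 1100.5 to 2149). The cadherin Fat3, the syntrophin Sntb2, Rgs7bp, Btbd17 and Islr were 84.7-fold, 52.9-fold, 78.5-fold, 102-fold and 71.2-fold higher. Across the 30 genes, between 16 and 31 of the 32 barcodes had a UMI.

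Within the 20 marker-rich barcodes of the 14-week WT library, single-barcode levels spread widely. Fndc3c1 had a UMI in each of the 20 and ran from 1.22 to 18.0 UMIs per 10000 with a median of 6.71. Cldn10 ran from 2.66 to 36.5 with a median of 9.94, also without a barcode at 0. Col13a1 was at 0 in 4 barcodes and reached 28.3, with a median of 10.8. Adamts1 was present in 11 of the 20 and had a median of 0.913 and a highest value of 15.6. Each of these genes was thus present in at least 11 of the 20 barcodes. Over all 32 marker-rich barcodes, the largest share of the UMIs of Col23a1 in 1 barcode was 21.2%. For Adamts1 it was 30.9%, or 25 of 81 UMIs.

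The same genes were high in barcodes that the filters had removed. Outside the limits for detected genes and mitochondrial RNA, 29 barcodes carried at least 3 markers and none of the exclusion genes, with a median of 28.4% mitochondrial UMIs. Of the 30 genes ranked on kept barcodes, 30 were at least 4-fold higher in these 29 than in the other kept barcodes, from 53.0-fold (Slc1a3) to 4096-fold (Tbx3os1), in CPM without mitochondrial genes. Lrrtm3 was at 631 CPM there and at 425 CPM in the kept marker-rich barcodes on that scale, Col13a1 at 1345 and 983 CPM, and Cldn10 at 590 and 1337 CPM. The sorting of barcodes by the same markers is shared by both sets. In the 14-week WT library 26 of these barcodes lay outside the limits and 20 inside, so 56.5% of its marker-rich barcodes were lost to the filters. The corresponding numbers were 2 and 6 in p25OE at 14 weeks, 1 and 5 in WT at 40 weeks, and 0 and 1 in p25OE at 40 weeks. The kept marker-rich barcodes also had more mitochondrial RNA than the rest at 14 weeks, with medians of 14.0% against 4.95% in WT and 13.2% against 6.63% in p25OE. Its part in the levels was not tested.

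Markers of several other cell types were low in the marker-rich set, and those of others were not. Mural and B cell markers had 0 UMIs, 6 of 6 and 4 of 4 genes. They summed to only 7.34 and 14.2 CPM in the others, so these zeros are not resolved at this depth. Macrophage markers summed to 54.2 CPM against 1004 CPM in the others, with 5 of 8 genes at 0, and over the libraries the sum ran from 0 to 260 CPM. Oligodendrocyte lineage markers summed to 49.6 CPM against 63.4 CPM, with 7 of 11 at 0. Schwann cell markers summed to 149 CPM against 35.5 CPM (139 to 216 CPM over the libraries), with 2 of 9 at 0. Ependymal markers summed to 442 CPM against 176 CPM (109 to 2424 CPM over the libraries), with 5 of 8 at 0. Of the 442 CPM, 388 CPM came from Mia, which is also among the anterior stem markers. Mia had 86 UMIs, 47 of them in 1 barcode, and was at 2381 CPM in WT at 40 weeks. Markers of anterior stem and folliculostellate cells summed to 1232 CPM against 1240 CPM (508 to 5281 CPM over the libraries), with 1 of 11 at 0. The part of these 3 cell types in the profile was not tested. The lowest genes of the 87 barcodes were the macrophage genes Ctss (0.0193 times the level of the others), Lyz2 (0.0307) and C1qb (0.0328), which the exclusion of C1qa favours. Of neuronal genes, Snap25 and Syt1 were at 0.0749 and 0.0757 times the level of the others. Oxt, which encodes oxytocin, had 16 UMIs in 9 barcodes at 72.2 CPM against 12.0 CPM, and Avp, which encodes vasopressin, 1 UMI. Both hormones are released from the axon terminals that pituicytes surround, and the source of these UMIs was not tested.

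The gonadotroph genes of the 87 barcodes came from the 2-marker set. Lhb was 10.2-fold higher in the 87 barcodes, 12.4-fold in the 2-marker set and 0.304 times the level of the others in the marker-rich set. Cga was 7.89-fold higher in the 87 and 0.0962 times in the marker-rich set. Fshb, Gnrhr and Nr5a1 had 313, 102 and 32 UMIs in the 87 and 0 in the marker-rich barcodes.

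Against stem-like barcodes, the marker-rich set kept most of its glial genes. These 882 barcodes carried at least 3 of Sox2, Mia, Aldh1a2, Cpxm2 and Fxyd3, which mark the stem and folliculostellate cells of the anterior lobe. Of 2136 genes measured, 154 were 4-fold higher in the marker-rich set (7.21%) and 74 lower (3.46%). For the 87 barcodes the counts were 114 (1.37%) and 220 (2.64%) of 8340. Col13a1 had 5 UMIs over all stem-like barcodes (1740-fold, 733 to 5421), Bcan was 47.2-fold higher, Cldn10 38.8-fold and Slc1a3 15.2-fold. Sox2 was 0.741 times as high (0.541 to 0.991), while Sox9, Hes1 and Notch1 were 2.39-fold, 2.53-fold and 2.48-fold higher, short of 4-fold. Of the 22 Notch pathway and progenitor genes, 6 were measured against stem-like barcodes, 0 were 4-fold higher and 3 were 4-fold lower (median log2 ratio -0.93). Of 25 astroglial genes, 15 were measured, 8 were 4-fold higher and 1 was lower (median log2 ratio 2.08). Of the 20 transcription factors of the infundibulum and of tanycytes, 9 were measured, 2 were 4-fold higher and 0 lower (median log2 ratio 1.19). Among them Nfib was 2.28-fold higher and Nfia 0.466 times as high. Rbpms and Aldh1a2 were 0.124 and 0.0721 times the stem-like level, Aldh1a2 being a gene that picked those barcodes.

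Against 93 fibroblast-like barcodes, picked by at least 3 of Col1a1, Col1a2, Col3a1, Dcn and Lum, 173 of 2323 genes were 4-fold higher in the marker-rich set (7.45%) and 202 lower (8.70%). For the 87 barcodes 275 of 8748 were higher (3.14%) and 752 lower (8.60%). Col13a1 was 18.9-fold higher (11.9 to 31.7) and Slc1a3 46.1-fold. Gpc3, Timp3 and Igfbp4 had ratios of 1.01, 0.980 and 1.32, so these matrix and growth factor genes were shared with fibroblast-like barcodes. Of 43 matrix genes, 21 were measured in this comparison, 5 were 4-fold higher and 8 lower (median log2 ratio -0.73). Of 35 secreted signals, 12 were measured, 5 were higher and 4 lower (median log2 ratio -0.65). Adamts1, Igfbp2 and Angptl4 were at 0.965, 0.493 and 0.512 times the fibroblast-like level. Islr was 0.365 times the fibroblast-like level. Dcn, used to pick the fibroblast-like barcodes, had 1984 UMIs there and 0 in the marker-rich set.

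The 30 highest genes were chosen by a limit that asked for a 4-fold ratio in each of the 3 libraries with at least 10 marker-positive barcodes, so their counts in those libraries are largely fixed by the choice. Of the 30 highest genes, 30 were at least 4-fold above the other barcodes of the same library in WT at 14 weeks, 29 in p25OE at 14 weeks, 28 in WT at 40 weeks, and 20 in the 1 barcode of p25OE at 40 weeks, the library that did not enter the limit. The 14-week WT library holds 165180 of the 221581 UMIs of this set, and the others hold 27536, 23103 and 5762. Counts of the smaller libraries are therefore wide in their intervals.

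Levels of single genes were alike in some cases and not in others. Col13a1 was at 854 CPM (718 to 1007), 726 (444 to 1122), 1212 (805 to 1752) and 868 (282 to 2025) in the 4 libraries, with overlapping intervals. Col23a1 was at 975 CPM (830 to 1137) in WT and 400 (199 to 715) in p25OE at 14 weeks, where the intervals did not overlap, and at 260 (95.3 to 565) and 1041 (382 to 2266) at 40 weeks. Cldn10 was at 1386 and 581 CPM at 14 weeks and at 519 and 1215 CPM at 40 weeks. Both genes were lower in p25OE than in WT at 14 weeks and higher at 40 weeks, where 1 p25OE barcode stood against 5. Adamts1 went the other way at 14 weeks, with 284 CPM (209 to 378) in WT and 1017 (676 to 1470) in p25OE. These levels rest on 47 and 28 UMIs, and 1 barcode of these 2 libraries held 25 of them. That barcode lies in the WT library, so a large part of the WT level comes from 1 barcode. In p25OE at 14 weeks, the marker-rich barcode nearest to corticotrophs held 9542 of the 27536 UMIs of the set. In WT at 40 weeks, those nearest to stem-like barcodes and to lactotrophs held 9089 and 2565 of 23103. The part of these barcodes in the levels was not tested. Under 10 barcodes a library, no comparison was called for the marker-rich set.

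**Figure D5:**
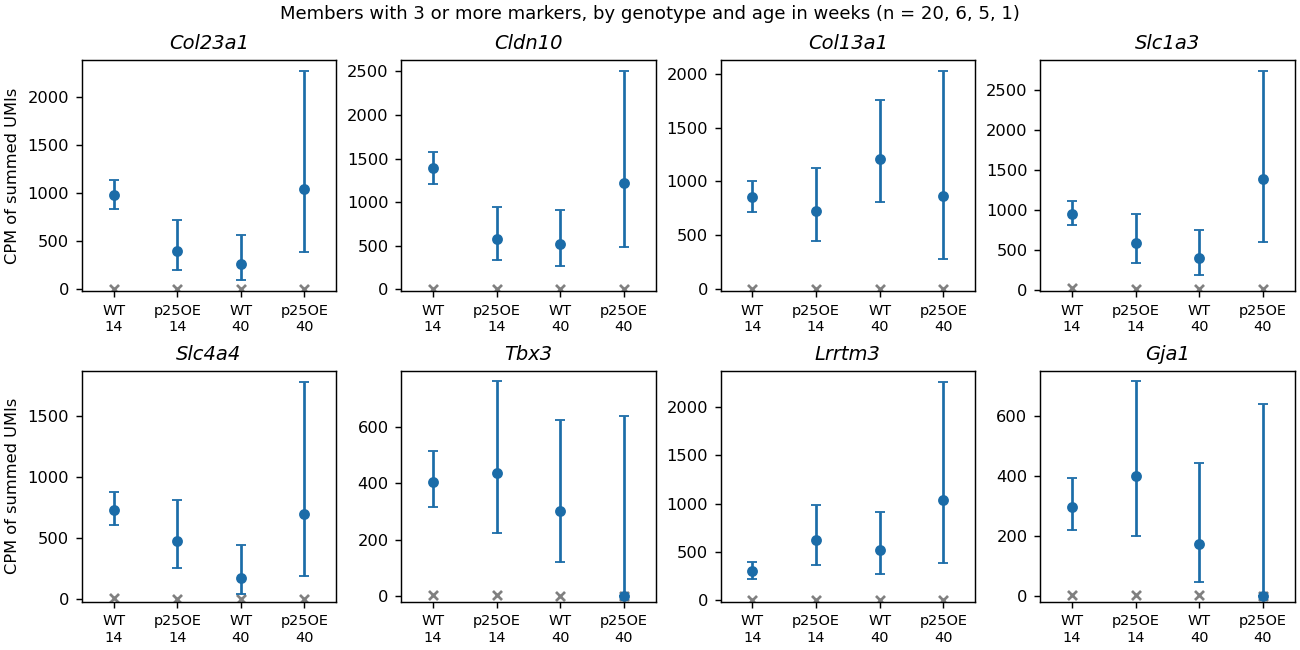
Level of 8 genes in the marker-rich barcodes of each library (points, CPM of summed UMIs with exact 95% Poisson intervals for counting error; 20, 6, 5 and 1 barcodes) and in the other kept barcodes of that library (grey crosses). All 8 genes lie above the crosses at 14 weeks, and Tbx3 and Gja1 had 0 UMIs in the single p25OE barcode at 40 weeks.

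In all marker-positive barcodes at 14 weeks, 79 of 7132 genes were called higher in p25OE (1.11%) and 47 lower (0.659%). A gene was called from a 2-fold ratio whose interval excluded 1.5-fold. With median-of-ratios scaling the split was 68 higher and 71 lower. The make-up of the barcodes differed too, with 41.7% marker-rich and 18.9% of the UMIs from them in WT, against 23.1% and 9.94% in p25OE, and its part in the calls was not tested. Some glial genes were called lower in p25OE. Slc1a2 had 3 UMIs against 52 (0.182, interval 0.0363 to 0.562), Col23a1 had 16 against 172 (0.293) and Cldn10 21 against 236 (0.280). Their UMIs came mostly from marker-rich barcodes, 2 of 3 and 43 of 52 for Slc1a2, 11 of 16 and 161 of 172 for Col23a1, and 16 of 21 and 229 of 236 for Cldn10. Within the marker-rich set Slc1a2 was at 72.6 CPM (8.80 to 262) in p25OE and 260 CPM (188 to 351) in WT, with overlapping intervals. Levels of Col23a1 and Cldn10 in that set are given above, and the intervals of Col23a1 did not overlap. Among the lowest were also Spp1 (4 against 241 UMIs), Nhlh2 (1 against 37), Igdcc4 (2 against 48) and the lipocalin gene Apod (4 against 82). Marker-rich barcodes held 0 UMIs of Spp1, Nhlh2 and Apod in both libraries, and 0 and 4 of Igdcc4, so these calls lie in 2-marker barcodes. Lrrtm3 had a ratio of 1.19 (0.674 to 2.02).

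Among the genes called higher in p25OE at 14 weeks, Irf7, a regulator of interferon genes, had a ratio of 5.41 in marker-positive and 5.10 in the other barcodes. Of its UMIs, marker-rich barcodes held 0 of 24 in p25OE and 12 of 14 in WT. The POU factor Pou3f1 had 5.25 and 6.02, and the histone gene Hist1h2ac 4.20 and 2.29, with 4 of 20 and 10 of 12 UMIs of Pou3f1 and 7 of 20 and 9 of 15 of Hist1h2ac in marker-rich barcodes of p25OE and WT. The ratios of the marker-positive barcodes thus had the same direction as those of the rest. Col20a1 (17 against 3 UMIs, 17.9, interval 5.17 to 95.2) and Vip, the vasoactive intestinal peptide gene (30 against 18 UMIs, 5.25, 2.84 to 10.0), were at 1.14 and 0.245 in the other barcodes. Marker-rich barcodes held 0 and 1 UMIs of Col20a1 and 0 and 0 of Vip, so both calls lie in 2-marker barcodes.

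In WT, the 10 marker-positive barcodes at 40 weeks had 129 of 6141 genes called higher than the 48 at 14 weeks (2.10%) and 18 lower (0.293%). With median-of-ratios scaling the split turned to 38 higher and 78 lower, and the median log2 ratio of all genes was 0.31. The marker-rich barcodes gave 54.2% of the UMIs at 40 weeks and 18.9% at 14 weeks. Lrrtm3 (5.03, interval 2.52 to 9.35) and Col13a1 (4.01, 2.58 to 6.05) were called higher and had ratios of 0.886 and 0.880 in the other barcodes. Nearly all their UMIs were in marker-rich barcodes, 12 of 13 and 49 of 53 for Lrrtm3, and 28 of 28 and 141 of 143 for Col13a1. Within the marker-rich set Lrrtm3 was at 519 CPM (268 to 907) at 40 weeks and 297 CPM (219.5 to 392) at 14 weeks, and Col13a1 at 1212 CPM (805 to 1752) and 854 CPM (718.5 to 1007), with overlapping intervals for both. Dbp, a clock-controlled factor, had a ratio of 11.2, and of 5.10 in the others, and Mia of 8.38 and 4.33, with 47 of the 76 UMIs of Mia at 40 weeks in 1 barcode. Hist4h4, Abhd14b and Gstt1 had ratios of 10.9, 7.56 and 7.52. Basp1 was lower (1 against 176 UMIs, 0.117), and at 0.187 in the others.

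Over the 87 barcodes, the kinase that p25 activates was near the level of other cells. Cdk5 had 36 UMIs in 26 of the 87 barcodes (0.977 times the level of the others). In the marker-rich set it had 5 UMIs (0.739 times, interval 0.240 to 1.73). Cdk5r1 had 12 UMIs in 11 barcodes and 1 in the marker-rich set. At 14 weeks Cdk5 had a p25OE over WT ratio of 1.31 (0.561 to 2.85) with 10 and 24 UMIs. Marker-rich barcodes held 0 and 4 of these, so the ratio rests mostly on 2-marker barcodes. Of 10 genes for Cdk5 and its partners 7 were measured, 0 were higher and 0 lower in the 87 barcodes. Cdkn1c, a cell cycle inhibitor of the same list, was 7.86-fold higher in the marker-rich set.

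Cell cycle genes were mostly below the limit for a measured gene. Of 22 such genes 1 was measured in the marker-rich set, 0 were higher and 0 lower, and the list summed to 456 CPM against 574 CPM in the other barcodes. Mki67 and Mcm2 had 0 UMIs there, as had 14 of the 22. The upper limits of their pooled ratios were 0.998 and 0.685. In the 14-week WT library the others were at only 3.62 and 6.76 CPM. The upper limit in its marker-rich barcodes was 22.3 CPM for each, so within that library these zeros are not resolved at this depth. In the 87 barcodes 10 of the 22 were measured, 0 were higher and 3 lower. Ccnd2, a cyclin, had UMIs in 27 of 32 marker-rich barcodes and a ratio of 1.40.

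Interferon genes were present in many marker-rich barcodes but unevenly. Of 19 genes 11 were measured and 7 were 4-fold higher, with a median log2 ratio of 2.43, and in the 87 barcodes 17 were measured and 1 was higher. Against stem-like barcodes 12 were measured and 0 were 4-fold higher (median log2 ratio 0.67), and against fibroblast-like barcodes 13 were measured, 0 were higher and 1 lower (median 0.34). In the 14-week WT library the list summed to between 6.26 and 219 UMIs per 10000 in single barcodes, with a median of 27.9 against 6.56 in the others, and 1 barcode held 34.5% of the UMIs. The medians in the other libraries were 28.5, 27.3 and, from 1 barcode, 26.0. Ifit1 had 37 UMIs in 5 barcodes. Cxcl10 had 64 UMIs in 2 barcodes, 95.3% of them in 1.

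Genes of acute stimulation and of the reactive state of glia did not form such a group. Of 23 immediate early and heat shock genes 16 were measured, 1 was higher (Hspb1, 4.02-fold) and 1 lower, and the median log2 ratio was 0.02, below that of all genes. The list had medians of 53.0, 161, 41.4 and 115 UMIs per 10000 in the 4 libraries, against sums of 59.8, 106, 53.3 and 75.7 in the other barcodes. Of 22 reactive glia genes 7 were measured and 1 was higher, which was Cxcl10, and in the 87 barcodes 11 were measured and 2 higher. Of 17 thyroid hormone and retinoid genes 2 were measured and 1 was higher.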

How the data were processed

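The deposited matrices hold whole-number UMI counts per gene and cell barcode over 31053 features, per the file headers. The authors made them with Cell Ranger 3.0.2 on mm10, per the submitters' processing notes, while the headers give version 3.0.1. The submitters' barcode filter is not given in the sources used here.

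Barcodes with at least 500 genes and at most 20% mitochondrial UMIs were kept, the marker rule was applied, and UMIs were summed over barcodes and expressed as CPM (numpy 2.4.6, scipy 1.17.1, pandas 2.3.3). Ratios carry exact intervals of 2 Poisson counts, shares exact Clopper-Pearson intervals at 95%. Against 0 UMIs a floor of 3 UMIs over the group was used. Reference profiles were compared on log2(CPM + 10) over genes with at least 50 CPM. Where a symbol occurs more than 1 time, its first feature was used. No doublet caller was run, and an alternative leaves out the 6% of barcodes with the most UMIs. Gene positions come from GENCODE M21. The calculations were tested on simulated data.

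Named genes are the rule genes, Cdk5, Cdk5r1, Mcm2, Mki67, 7 hormone genes, the 30 highest and 5 lowest ratios with at least 50 UMIs, a UMI in 20% of barcodes and 4-fold in each library with at least 10 marker-positive barcodes (only 3 lowest qualified), up to 6 genes per function list, and the 5 highest and lowest called genes per library comparison. Genes named for their 0 or low counts (Avp, Gfap, Aqp4, S100b) and those of the closing observations were chosen after their values were seen. The barcodes, markers and gene lists were chosen with earlier results of these data known. Genes of a list that were not measured count as not called. Libraries were compared only where both had at least 10 marker-positive barcodes. Nothing states that libraries are separate animals or pools, nor which libraries shared either of the 2 runs. Values of a few genes that the rule selects are not reported here.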

Additional observations from a re-analysis of the deposited data

Results flagged for a closer look

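Barcodes outside the filters also met the marker rule. In the 14-week WT library 50 of the 2332 barcodes left out did so (2.14%, interval 1.60% to 2.82%), 43 of them only because of mitochondrial RNA, and in the 14-week p25OE library 6 of 7351 did (0.0816%). These barcodes are not among the 87. The p25OE over WT ratio of the share of marker-positive barcodes among those with 0 Oacyl UMIs was 0.582 at 14 weeks and 1.18 at 40 weeks, so it lay on opposite sides of 1. The difference between the ages was not tested, the 40-week value rests on 3 and 10 barcodes, and the intervals of the 40-week shares overlapped.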

How the results depend on the processing

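The number of marker-positive barcodes, 87, changed to 32 with at least 3 markers, 153 without exclusion genes, 49 with at most 10% mitochondrial UMIs, 30 after thinning, and 47 and 53 without Col25a1 or Vcan as a marker. It was 33, 56 and 30 in alternatives added after seeing the data, which kept barcodes nearest to the marker-rich profile, those with at most 10% hormone UMIs, or those with at least 3 markers and at most 10%. Leaving out 1 library at a time gave 39 to 84.

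Genes 4-fold higher, 196, numbered 79 with at most 10% mitochondrial UMIs, 311 without Col25a1, 300 by the mean over barcodes, 91 at 8-fold, and 300 and 342 in the added nearest-profile and hormone alternatives. Genes 4-fold lower, 103, numbered 56 after thinning, 67 without the deepest 6%, 46 without Col25a1, 49 without Vcan, 58 at 8-fold, and 42 with at most 10% hormone UMIs (62 with at least 3 markers as well). Counting genes from 1 UMI gave 12681 and 303. Leaving out 1 library at a time gave 61 to 194 and 38 to 116, the lowest values without WT at 14 weeks. Against stem-like barcodes these ranges were 39 to 116 higher and 99 to 247 lower, and against fibroblast-like barcodes 76 to 339 and 244 to 775. With at least 3 markers the counts were 74 lower against stem-like, and 173 higher and 202 lower against fibroblast-like barcodes.

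Between libraries at 14 weeks, 48 genes were higher and 24 lower from 50 UMIs on, 143 were higher without the deepest 6%, and 71 were lower by median of ratios. In WT, 40 over 14 weeks, 80 genes were higher from 50 UMIs on, 81 without the deepest 6% and 38 by median of ratios, with 78 lower.

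Cga fell below the other barcodes with at least 3 markers (0.0933), after thinning (0.153), in nearest-profile barcodes (0.0727) and with 3 markers and at most 10% hormone UMIs (0.0939). For Lhb the values were 0.292, 0.237, 0.170 and 0.348. Fshb, with 0 UMIs, was at most 0.722, 0.757 and 0.859 times the others with at least 3 markers, in nearest-profile barcodes and in the set with 3 markers and few hormone UMIs. Without Vcan as a marker it had 7 UMIs and a ratio of 0.792. Mki67 had ratios of 1.45 without exclusion genes and 1.90 without Oacyl as an exclusion. After thinning it had 0 UMIs, and 1.19 is an upper limit. The cause of these changes was not tested, beyond the smaller number of barcodes. Median-of-ratios scaling shifted all log2 ratios by 0.25.

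No paired analysis was possible because each group was 1 library. Library comparisons with at least 3 markers were not run, since p25OE at 14 weeks had 6 such barcodes and WT at 40 weeks 5. With 20 marker-rich barcodes in the deepest library and 1 to 6 in the others, levels of genes with few UMIs in the latter are not resolved at this depth.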

Other observations

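Further genes set the marker-rich barcodes apart, named after their values were seen. Ptn, which encodes the growth factor pleiotrophin, had UMIs in 32 of 32 barcodes at 2825 CPM against 122 CPM in barcodes that were not marker-positive (23.1-fold, 21.4 to 25.1). Nkx2-4, a homeobox gene related to Nkx2-1, had 38 UMIs in 13 barcodes (1605-fold, 964 to 2698), 12 of them in the 14-week WT library. Gldc, of the glycine cleavage system, had 42 UMIs in 16 barcodes (330-fold), and Car14, a membrane carbonic anhydrase, 34 in 17 (270-fold). The matrix genes Fbln2 and Prelp were 270-fold and 35.3-fold higher, and A2m, a protease inhibitor, 226-fold.

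Aldoc, a glycolytic enzyme typical of astrocytes, was present in 29 barcodes (12.3-fold). Its level was 1023 CPM (875 to 1190) in WT and 182 CPM (59.0 to 424) in p25OE at 14 weeks, and 736 and 1041 CPM at 40 weeks. Mest, an imprinted gene, was present in 31 barcodes (6.61-fold), at 2052 and 763 CPM at 14 weeks and 1212 and 868 CPM at 40 weeks. These are levels of 20, 6, 5 and 1 barcodes from 1 library each. They include the marker-rich barcodes nearest to other profiles, whose part in the levels was not tested. The lipid carrier gene Apoe and the protease inhibitor gene Cst3 had UMIs in each of the 32 barcodes and ratios of 2.45 and 2.97.

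Of 66 barcodes with at least 2 markers that an exclusion gene removed, 47 had an Oacyl UMI, 32 a C1qa UMI and 3 a Pecam1 UMI. Nearest to melanotrophs were 32 of the 66, and 3 were nearest to the marker-rich profile, all from the 14-week WT library.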
